A study of Mus musculus with 2 samples.

Results

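Neutrophils, the short-lived granulocytes that leave the bone marrow and patrol blood and tissue, were picked out of mouse liver single-cell libraries by their S100a8 and S100a9 RNA. A cell barcode was taken as a neutrophil when at least 200 genes were detected, at most 25% of its unique molecular identifiers (UMIs, each standing for 1 captured RNA molecule) were mitochondrial, S100a8 and S100a9 together made up at least 2% of its UMIs, and the B and T cell genes Cd79a and Cd3e were at 0. The rule found 89 neutrophils among 8172 barcodes that met the gene and mitochondrial limits (kept barcodes), 86 of them in the pIVCL library and 3 in the Control library. The 2 libraries came from mixed liver suspensions of C57BL/6 mice. The pIVCL library is from liver after partial inferior vena cava ligation, a narrowing of the vein that drains the liver, started at 8 to 10 weeks of age and kept for 6 weeks to raise portal pressure. The Control library carries the genotype label Control and the title Healthy. The growth protocol text is the same for both samples, so the labels leave a sham operation of Control mice and the number of animals per suspension unstated. With 1 library per condition there is no replicate, so no test between conditions was possible. Every difference below compares these libraries, and its interval covers counting error only.

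Neutrophils store their weapons in granules that are filled in a fixed order as the cell matures in the marrow: primary granules with myeloperoxidase and elastase in dividing promyelocytes, secondary granules with lactoferrin and cathelicidin in myelocytes and metamyelocytes, and tertiary granules with gelatinase in band cells. Mature cells switch the granule genes off and carry receptors such as Cxcr2, which guides them out of the marrow and into inflamed tissue, and Csf3r, the receptor for granulocyte colony-stimulating factor. S100a8 and S100a9 form calprotectin, a zinc- and calcium-binding complex that fills neutrophil cytosol. The genes lie close together on chromosome 3 (GRCm38, S100a8 from 90668978 to 90670035 and S100a9 from 90692632 to 90695721).

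The libraries held 38154000 UMIs over 7042 barcodes for pIVCL and 24637681 UMIs over 3574 barcodes for Control, and 5446 and 2726 barcodes were kept. Kept barcodes had a median of 2005 UMIs in pIVCL and 5268 in Control. In the 2 files 13 barcode sequences were shared, 9 of them kept in both, and none belonged to a neutrophil. No doublet caller was run. Instead, each neutrophil was searched for RNA of other cell classes, with the results given next.

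The label was set against markers that the rule did not use. Csf3r had a UMI in 48 of 86 pIVCL neutrophils and reached 330.4 CPM (the gene's UMIs scaled by all UMIs of the group, 95% interval 275.4 to 393.1). Monocyte-type barcodes of the same library stood at 51.1 CPM and B-type barcodes at 2.75 CPM. The pooled value came mostly from the 42 mature-leaning cells defined below, at 1140 CPM. The 43 immature-leaning cells stood at 52.5 CPM (29.4 to 86.7). For them Csf3r did not separate neutrophils from monocyte-type barcodes. Ly6g, the surface antigen used to sort mouse neutrophils, had 504.6 CPM in neutrophils and 0 UMIs in monocyte-type, Kupffer-type and B-type barcodes. Ly6g stood at 203.6 CPM in mature-leaning cells, with a UMI in 13 of 42, and at 606 CPM in immature-leaning cells. The marker lists of NK cells and of basophils or mast cells were at 0 in the 86 pIVCL neutrophils. The T cell list was also at 0, but it includes Cd3e, which the rule required to be 0. Of 9 monocyte genes, 6 were detected, with 228 UMIs in all and a UMI in 53 of 86 neutrophils, among them 138 UMIs of Ly6c2, 68 of Fn1 and 16 of Csf1r, while F13a1, Cx3cr1 and Vcan were at 0. Of 9 Kupffer cell genes, 7 were detected, with 106 UMIs in all and a UMI in 13 neutrophils, while Marco and Folr2 were at 0. Leaving out Ly6c2, 12 of the 86 carried at least 3 UMIs of another class's markers; with Ly6c2 counted, 27 had at least 3 UMIs of the monocyte list alone. Further, 29 had at least 2% of their UMIs from hepatocyte or erythroid genes, 35 barcodes in all. Hepatocyte genes made up a median of 1.37% of neutrophil UMIs (range 0.228 to 11.4%). In B-type barcodes, which should also lack them, the median was 1.47%. Several results below are given both with and without these 35 barcodes.

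A few barcodes stood apart. Of the 4 pIVCL neutrophils above 15000 UMIs, 3 had 23819, 24148 and 25564 UMIs, of which S100a8 and S100a9 made up 2.25 to 3.32%, mitochondrial RNA 16.4 to 18.9% and hepatocyte genes 8.64 to 10.3%. These 3 were all immature-leaning, a leaning defined below, so they weigh on its summed CPM. Another member held 87 UMIs of Kupffer cell genes. A pair held 43 and 45 UMIs of plasmacytoid dendritic cell genes, with 13 and 14 UMIs of Irf8, a transcription factor of monocytes and dendritic cells.

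S100a8 and S100a9 chose the members, so their levels are a description. They made up a median of 23.7% of UMIs in pIVCL neutrophils, from 2.23 to 41.7%, and 62 of 86 stood at 10% or more. The 3 Control neutrophils stood at 18.1, 27.6 and 30.9%. The lowest pIVCL members had 2.23, 2.25 and 2.45%, and the highest kept barcodes outside the rule had 1.78, 1.39 and 1.26%. In Control the highest barcode outside the rule had 0.0883%. Members held 98.4% of all S100a8 and S100a9 UMIs of kept pIVCL barcodes. They stood at 85.9 CPM in Kupffer-type and 91.3 CPM in B-type barcodes of the same library, classes that should lack them, and at 81.2 CPM in monocyte-type barcodes, a class whose cells can express them.

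Neutrophils made up a larger share of the pIVCL library than of the Control library. They were 86 of 5446 kept barcodes in pIVCL (1.58%, exact 95% interval 1.265 to 1.947%) and 3 of 2726 in Control (0.110%, 0.0227 to 0.321%). The pIVCL share was 14.35 times the Control share, with an interval of 4.75 to 70.9. Among leukocytes, taken as kept barcodes with a UMI of the pan-leukocyte gene Ptprc, neutrophils were 64 of 1741 in pIVCL (3.68%, 2.84 to 4.67%) and 3 of 590 in Control (0.509%, 0.105 to 1.48%). The ratio on that base was 7.23 (2.365 to 35.98). Both intervals lie above 1, so the difference between these libraries is larger than counting error, while the spread between mice is unknown.

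Other blood-borne classes moved in the same direction. Erythroid barcodes, defined by at least 2% of UMIs from haemoglobin and related genes, were 70 of 5446 in pIVCL and 4 of 2726 in Control, a ratio of 8.76 (3.27 to 33.04). B-type barcodes were 922 and 136, a ratio of 3.39 (2.83 to 4.09). Monocyte-type barcodes were 168 and 36, a ratio of 2.34 (1.62 to 3.45). Kupffer-type barcodes, the resident macrophages, were 672 and 272, a ratio of 1.24 (1.07 to 1.43). These classes moved with the neutrophil share in the same 2 libraries, and their part in it was not tested. In shares of barcodes, more of one class and fewer of another cannot be told apart.

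**Figure D1:**
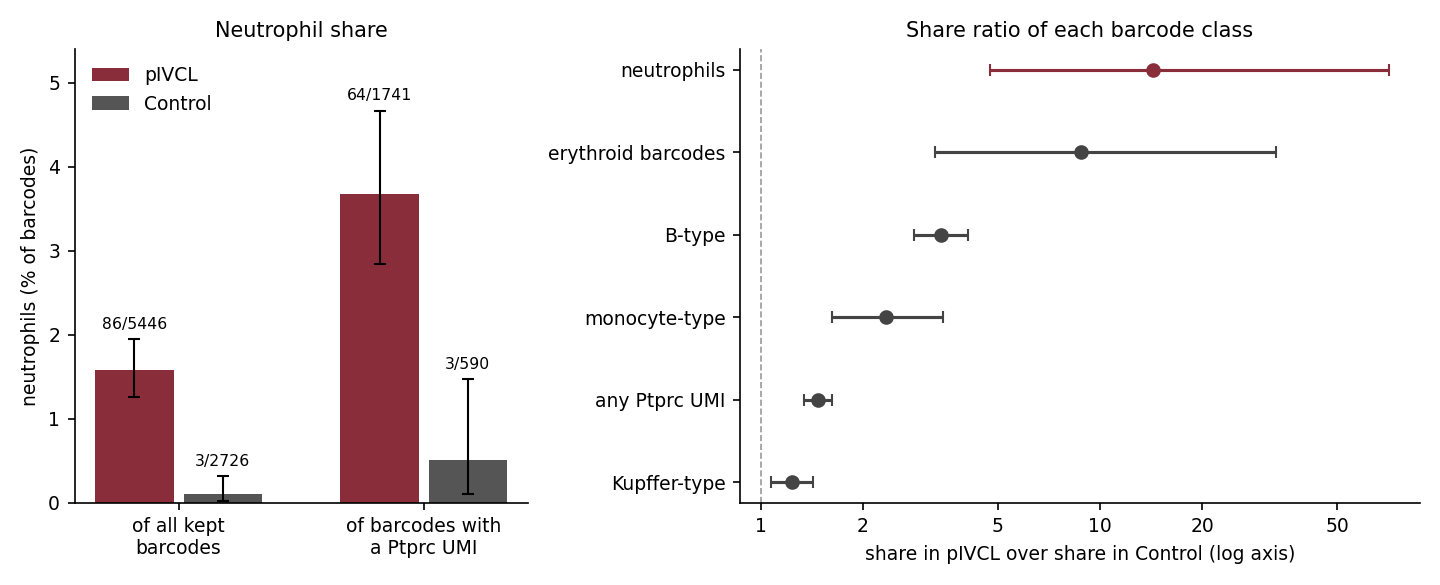
Left, neutrophils as a percentage of kept barcodes and of kept barcodes with a Ptprc UMI, in pIVCL and Control, with exact 95% binomial intervals and the counts above each bar. Right, the pIVCL share over the Control share for 6 barcode classes on a log axis with exact 95% intervals, where neutrophils have the highest ratio at 14.35 and Kupffer-type barcodes the lowest at 1.24.

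The pIVCL neutrophils, with only 69 primary granule UMIs in all, ranged from cells rich in secondary granule RNA to cells with little or none. Each was placed by 6 immature genes (Ltf, Camp, Ngp, Chil3, Cebpe and Serpinb1a) and 7 mature genes (Csf3r, Cxcr2, Il1b, Il1r2, Mxd1, Clec4d and Msrb1): 42 held more mature than immature UMIs and are called mature-leaning (48.8%, 37.9 to 59.9%), 43 held more immature UMIs and are called immature-leaning (39.02 to 60.98%), and 1 was equal. These are ranges of a per-cell count and not separate types. Most members lay far from the line: 27 of the 42 mature-leaning had no immature UMI, 35 of the 43 immature-leaning had at least 50, and 5 of 86 were within 5 UMIs of equal. When every barcode was thinned to 500 UMIs, 42 were mature-leaning, 40 immature-leaning and 4 equal, and 1 changed sides. Mature-leaning cells were shallower, with a median of 1875.5 UMIs compared with 5399 in immature-leaning cells, and had less S100a8 and S100a9 (median 16.1 and 32.7% of UMIs). Hepatocyte genes made up a median of 1.725% of UMIs in mature-leaning and 1.02% in immature-leaning cells, and 20 and 14 of them carried RNA of another class.

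In the Control library 2 neutrophils were mature-leaning and 1 was immature-leaning, which with 3 cells allows a mature-leaning share anywhere from 9.43 to 99.2%. The mature-leaning cells had 3854 and 2902 UMIs, with 32 and 39 mature UMIs and no immature UMI. The immature-leaning cell had 22204 UMIs, of which 1395 were of the immature and 12 of the mature genes. That cell also carried at least 3 UMIs of another class's markers and held 473 primary granule UMIs, of which 261 were Elane (neutrophil elastase), 162 Prtn3 (proteinase 3) and 30 Mpo (myeloperoxidase), and 9 of 12 cell-cycle genes. No pIVCL neutrophil held more than 44 primary granule UMIs.

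**Figure D2:**
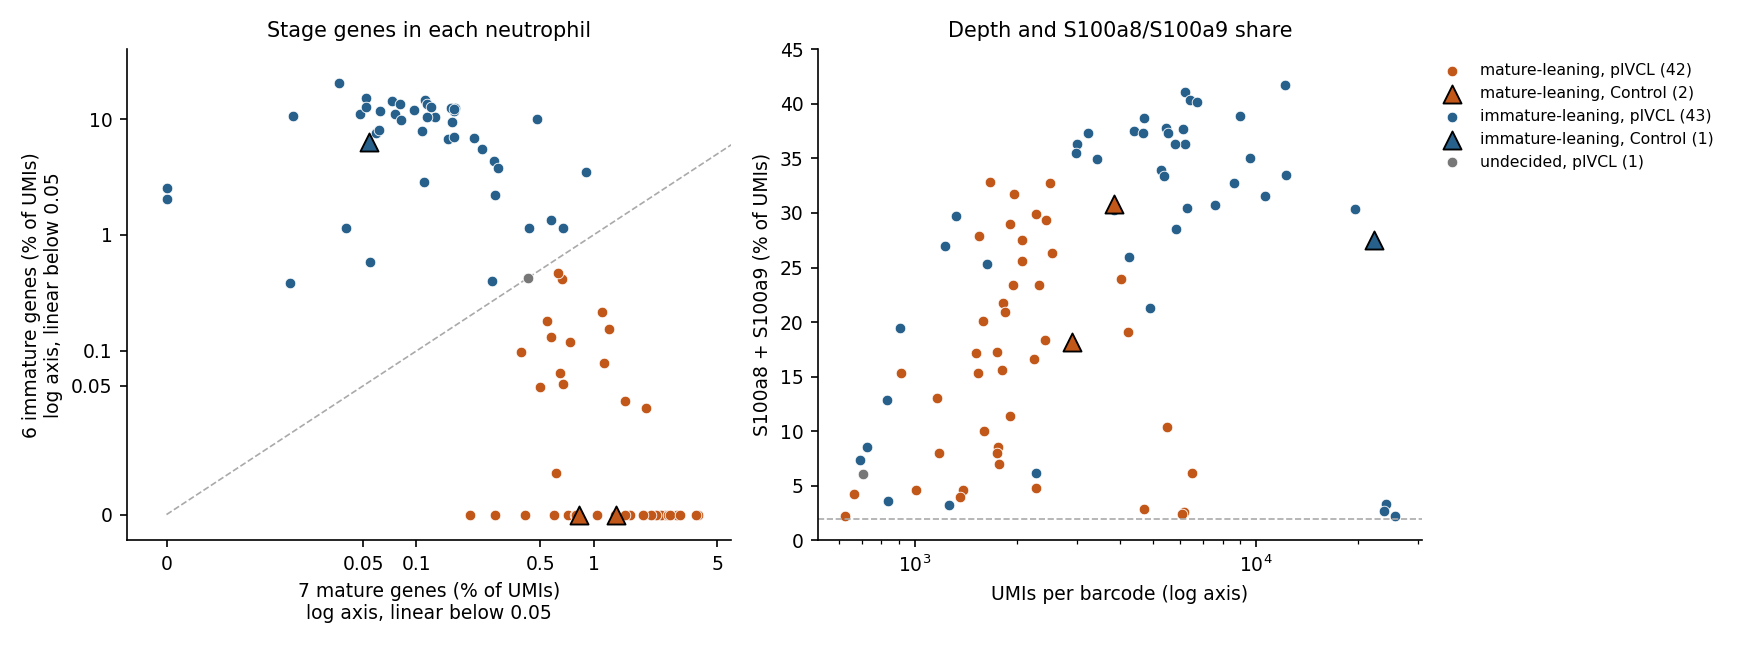
Left, each neutrophil by the percentage of its UMIs from the 7 mature genes and the 6 immature genes, on log axes that are linear below 0.05, with the line of equal shares dashed. Right, S100a8 plus S100a9 as a percentage of UMIs against UMIs per barcode on a log axis, with the limit of 2% dashed. Circles are the 86 pIVCL cells and triangles the 3 Control cells. The 42 mature-leaning cells have a median of 1875.5 UMIs and the 43 immature-leaning cells 5399.

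The genes that set the ends of this range are Camp, Ngp and Ltf, all on chromosome 9, and Il1b on chromosome 2. Camp encodes the cathelicidin antimicrobial peptide, Ngp a granule protein of the same cystatin-like family, Ltf the iron-binding lactoferrin and Il1b the cytokine interleukin-1 beta. Sequences upstream of their starts are shown because the 3 granule genes vary together, and C/EBP factors, among them Cebpe, are known to switch on secondary granule genes. They are from RefSeq promoter windows of build GRCm38.p6, ended before both the RefSeq and the GENCODE start. The lines run 5′ to 3′ on the gene's strand, and capitals mark a C/EBP-type motif, TTGCNNAA or its reverse TTNNGCAA.
Camp, chr9:109849618-109849706, minus strand: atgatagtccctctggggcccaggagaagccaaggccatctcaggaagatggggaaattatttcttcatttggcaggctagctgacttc
Ngp, chr9:110419558-110419746, plus strand: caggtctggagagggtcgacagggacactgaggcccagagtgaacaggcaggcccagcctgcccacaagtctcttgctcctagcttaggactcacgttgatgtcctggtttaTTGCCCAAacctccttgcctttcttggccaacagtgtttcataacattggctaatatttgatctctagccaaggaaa
Ltf, chr9:111019042-111019270, plus strand: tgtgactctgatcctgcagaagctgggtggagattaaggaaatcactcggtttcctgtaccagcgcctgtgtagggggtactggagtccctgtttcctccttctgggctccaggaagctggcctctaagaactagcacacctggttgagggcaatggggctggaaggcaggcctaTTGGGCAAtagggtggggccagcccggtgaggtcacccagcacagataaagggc
Il1b, chr2:129371140-129371389, minus strand: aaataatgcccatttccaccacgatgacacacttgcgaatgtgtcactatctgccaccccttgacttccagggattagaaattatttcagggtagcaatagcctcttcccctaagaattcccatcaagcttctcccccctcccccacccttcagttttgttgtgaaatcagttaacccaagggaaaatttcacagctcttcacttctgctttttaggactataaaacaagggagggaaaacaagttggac
The motif occurs once in the 189 bases of Ngp and once in the 229 bases of Ltf, and not in the 89 bases of Camp or the 250 bases of Il1b. Windows of those lengths, taken from the far end of the 250 bases upstream of each RefSeq start, hold it in 7.76, 9.02, 3.68 and 9.56% of 32851 mouse promoters. The windows of Camp, Ngp and Ltf end 161, 61 and 21 bases before the RefSeq start. The bases between were not searched. A match describes these letters only, and the windows differ in length.

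Secondary granule genes, which partly made the split and are given for Camp, Ngp and Ltf as a description, separated the leanings almost completely. Camp had 2 UMIs in 42 mature-leaning cells, in which 2 cells had 1 each. In the 43 immature-leaning cells it had 10908 UMIs, from 2 to 945 per cell with a median of 210, so the cells did not overlap. Ltf had 0 UMIs in mature-leaning cells and 2140 in 41 of 43 immature-leaning cells, at least 245.4-fold lower in the mature-leaning ones with a floor of 3 UMIs over the group. Ngp was less clean, with 40 UMIs in 11 mature-leaning cells and 7433 UMIs in all 43 immature-leaning cells. A Camp UMI occurred in 2.495% of B-type barcodes, a class that should lack it, at a median depth of 1894 UMIs. Thinned to 500 UMIs per barcode, Camp would be found in 0.819% of mature-leaning and 95.8% of immature-leaning cells.

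Lcn2, which encodes the siderophore-binding lipocalin-2 and did not make the split, was graded rather than switched. It had a median of 2.5 UMIs (0 to 21) in mature-leaning cells and 64 UMIs (1 to 296) in immature-leaning cells, or 2107 and 11713 CPM, a ratio of 0.1799 (0.156 to 0.207). Cd177, a surface protein also stored in secondary granules, stood at 112.0 and 563.9 CPM (ratio 0.199, 0.0972 to 0.365). Mmp8, neutrophil collagenase, stood at 855.1 and 798.6 CPM with an interval of the ratio that spans 1 (0.824 to 1.38), and its log2 ratio was 0.10 with all members and 0.78 without other-class members. Olfm4, which marks a subset of neutrophils, had 0 UMIs in mature-leaning cells and 23 in 2 immature-leaning cells.

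Over all genes, 1387 had at least 30 UMIs summed over both leanings, and 271 of these were at least 2-fold higher in mature-leaning cells (19.5%) and 88 at least 2-fold lower (6.34%), on log2 ratios of CPM with 20 CPM added and with the split genes left out. The median gene was 0.34 higher on the log2 scale. With S100a8, S100a9 and the split genes taken out of the totals, the counts were 185 higher and 145 lower and the median was 0.06, so single ratios are best read against that shift. Without other-class members 174 genes were higher and 80 lower. That set leaves out the deepest immature-leaning barcodes, which weigh on summed values. The log2 ratio of Alb was -0.64 with all members and 1.18 without other-class members, and that of Cd47 -0.44 and -2.21. Both genes were named after their values were seen. Ratios below use all members unless stated. List counts below give genes past 2-fold among those with 30 UMIs, which some genes reached only through the leaning where they were high, so these counts are descriptions and support no direction for a list.

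**Figure D3:**
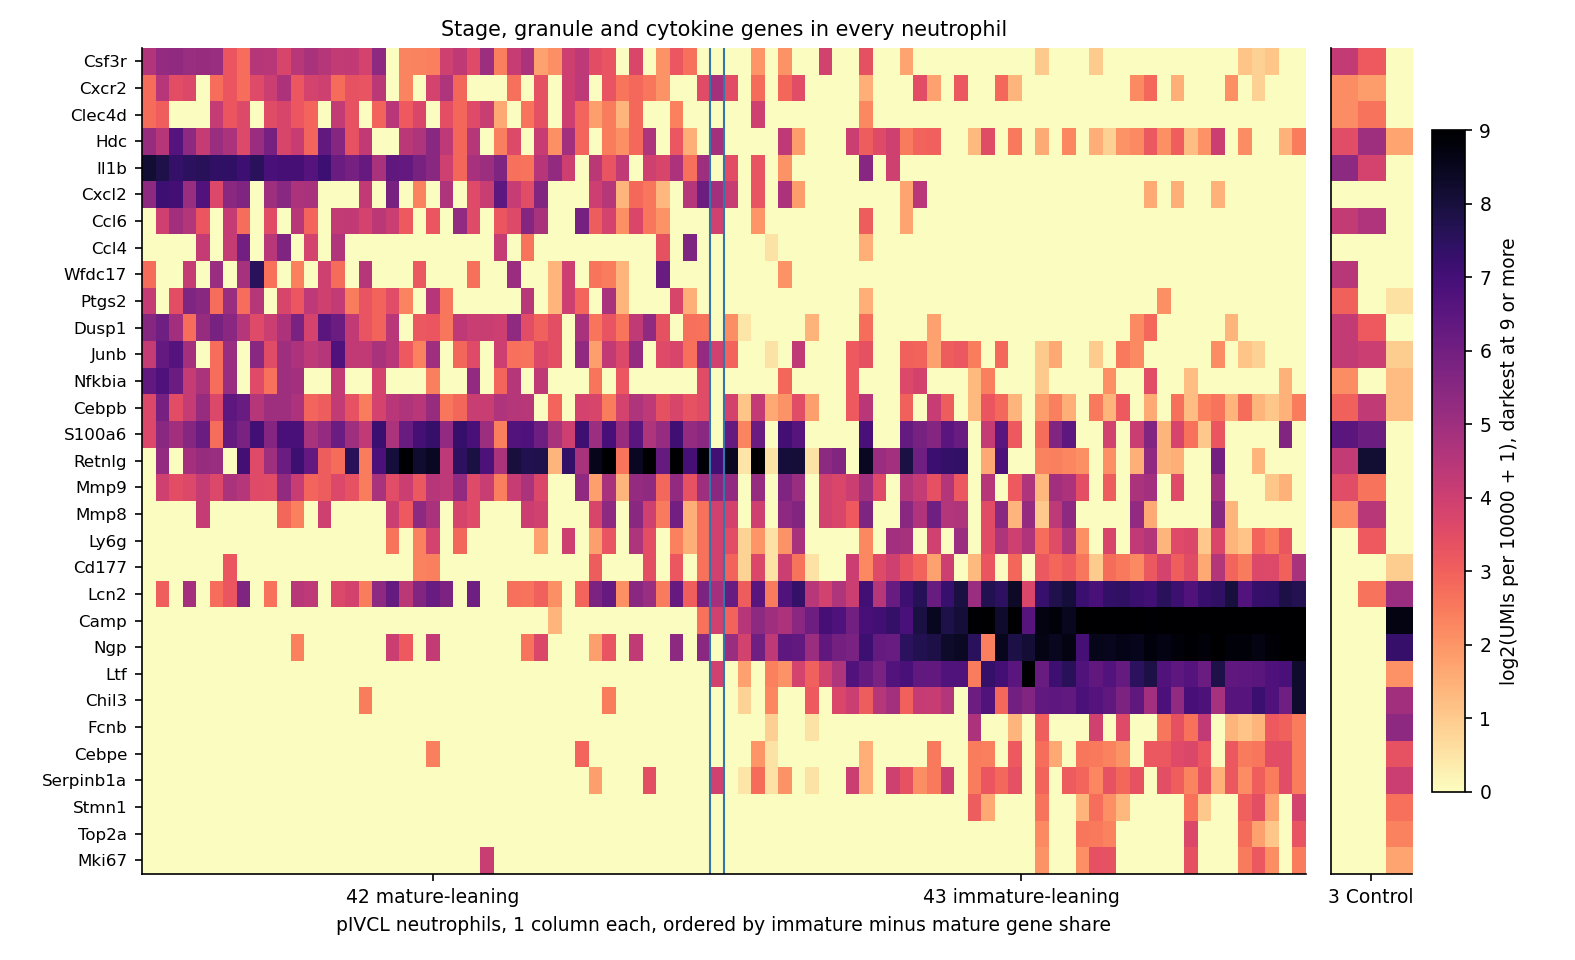
Log2 of UMIs, scaled per barcode and plus 1, for 31 genes in every neutrophil, 1 column per cell, with the 86 pIVCL cells on the left ordered by the immature minus the mature gene share and the 3 Control cells on the right. The lines enclose the 1 cell with equal counts. Camp, Ngp, Ltf and Lcn2 fill the immature-leaning side, Il1b, Csf3r and Dusp1 the mature-leaning side, and Stmn1 and Top2a occur in 13 and 9 immature-leaning cells.

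Among cytokine and chemokine genes, Il1b, a split gene, had a median of 12.5 UMIs (0 to 49) in mature-leaning cells and a median of 0 (0 to 24) in immature-leaning cells, with a UMI in 40 of 42 and 5 of 43 cells. Of the list's other 18 genes, 5 had 30 UMIs and 5 were at least 2-fold higher in mature-leaning cells, 0 lower, with a median log2 ratio of 4.34, but Cxcl2, Ccl3, Ccl4 and Ccl6 reached 30 UMIs only through the mature-leaning cells. Cxcl2, a neutrophil attractant that binds Cxcr2, stood at 2301 CPM in mature-leaning and 94.6 CPM in immature-leaning cells (ratio 24.3, 16.3 to 37.7). Ccl6, a myeloid chemokine, stood at 987.5 and 21.02 CPM (46.99, 20.8 to 131). Ccl4, a chemokine of activated myeloid cells, had 76 UMIs in 11 mature-leaning cells and 2 in 2 immature-leaning cells (ratio 110.4, 29.5 to 928.5). Of the 76 UMIs, 28 lay in the barcode with 43 UMIs of plasmacytoid dendritic cell genes. Ccl3 had 39 UMIs in 8 cells against 1, and 26 of the 39 were in a single cell. Without other-class members its log2 ratio was 2.43, with all members 4.15, and that of Ccl4 was 4.26 and 4.88. Osm, oncostatin M, stood at 488.6 and 189.1 CPM (2.58, 1.71 to 3.88). Cxcl1, Il6 and Il10 had 0 UMIs in all pIVCL neutrophils, which allows at most 3 UMIs in 384433. Tnf had 4 UMIs in mature-leaning and 5 in immature-leaning cells. Ccl3 and Tnf here, and Olfm4, Jun and C5ar1 elsewhere, were named after their values were seen.

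Genes of NF-kB feedback and survival had 6 of 7 genes at least 2-fold higher and 0 lower (median log2 ratio 2.33). Ptgs2, the inducible cyclooxygenase, had a UMI in 28 of 42 mature-leaning and 2 of 43 immature-leaning cells (702.4 and 10.51 CPM). Mcl1, a survival factor on which neutrophils depend, stood at 1211 and 224.2 CPM (5.404, 3.96 to 7.44), Nfkbia, the NF-kB inhibitor, at 997.6 and 98.1 CPM (10.2, 6.63 to 16.1) and Zfp36, which destabilizes cytokine mRNAs, at 1089 and 252.2 CPM (4.32, 3.17 to 5.91). Bcl2a1d was at 0 UMIs. Of the list of immediate-early and heat shock genes, 5 of 7 were past 2-fold higher and 0 lower, with a median of 2.36. Dusp1, a phosphatase of stress kinases, stood at 1741 and 56.04 CPM (31.1, 18.6 to 55.6) and Junb at 1720.4 and 143.6 CPM (11.98, 8.47 to 17.3), while Jun stood at 234.1 and 269.7 CPM with an interval of the ratio from 0.5199 to 1.398 and a log2 ratio of -0.19 with all members and -1.21 without other-class members.

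Among chemoattractant receptors outside the split, 3 of 5 were at least 2-fold higher in mature-leaning cells and 1 lower. Ccr1, which binds inflammatory CC chemokines, stood at 346.1 and 115.6 CPM (2.99, 1.8 to 4.99), and C5ar1, the receptor of complement C5a, at 325.8 and 91.1 CPM (3.58, 2.06 to 6.25). Ltb4r1, the leukotriene B4 receptor, ran the other way at 71.3 and 332.8 CPM (0.214, 0.0838 to 0.459). The split gene Cxcr2 had a UMI in 31 of 42 and 15 of 43 cells and 0 UMIs in B-type barcodes. Among growth factor, Fc and pattern receptors outside the split, 4 of 7 were past 2-fold higher and 0 lower. Clec4e, a C-type lectin that senses mycobacterial and damage-related lipids, stood at 651.5 and 133.1 CPM (4.89, 3.23 to 7.52). Trem1, which amplifies inflammatory signals, stood at 610.8 and 98.1 CPM (6.23, 3.92 to 10.1). The related Trem3 stood at 173 and 291 CPM, with an interval of the ratio that spans 1 (0.331 to 1.01). The split gene Csf3r had a median of 2.5 UMIs (0 to 6) and 0 UMIs (0 to 5).

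Adhesion genes were mixed, with 4 of 8 past 2-fold higher and 1 lower. Itgam, the alpha chain of the Mac-1 integrin, stood at 213.8 and 311.7 CPM (ratio interval 0.405 to 1.11), and its log2 ratio was -0.50 with all members and -1.14 without other-class members. Cd44, a hyaluronan receptor, stood at 519.2 and 154.1 CPM (3.37, 2.21 to 5.16). The gene past 2-fold lower was Ceacam1, an adhesion and signalling protein singled out after its value was seen, at 50.9 and 136.6 CPM (0.373, 0.115 to 0.946). Selplg, the ligand of P-selectin that lets neutrophils roll, stood at 651.5 and 59.5 CPM (10.9, 6.33 to 19.9) and was also named after its values were seen.

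Of 6 NADPH oxidase genes, which make the oxidative burst, 1 was past 2-fold higher and 1 past 2-fold lower, with a median log2 ratio of -0.21. Over all genes the shares were 19.5% higher and 6.34% lower, and 6 genes are too few to compare with them. Cybb, the catalytic subunit, had a UMI in 11 of 42 mature-leaning and 36 of 43 immature-leaning cells and stood at 346.1 and 973.7 CPM (0.355, 0.241 to 0.509). Cyba, its partner in the membrane, stood at 946.7 and 1349 CPM (0.702, 0.554 to 0.883). Rac2, the GTPase that switches the complex on, stood at 763.5 and 767.1 CPM (interval of the ratio 0.755 to 1.299). Ncf1, a cytosolic subunit, stood at 377 and 392 CPM (0.643 to 1.404).

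Interferon-stimulated genes of the type I list were past 2-fold higher in 4 of 6 and lower in 0 (median 1.54). Slfn4 and Slfn1, members of the Schlafen family, stood at 386.8 and 91.1 CPM (4.25, 2.51 to 7.29) and at 417.4 and 59.5 CPM (7.01, 3.895 to 13.2). Isg15, a ubiquitin-like modifier, stood at 346.1 and 42.03 CPM (8.23, 4.16 to 17.5). Ifitm3, which blocks virus entry, stood at 1456 and 1149 CPM, with a ratio of 1.27 (1.03 to 1.55). Ifi209 had 0 UMIs. Of 12 interferon-gamma-responsive genes only Iigp1, an immunity-related GTPase, reached 30 UMIs, at 91.6 and 98.1 CPM (0.388 to 2.04), and Socs1 was at 0.

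Alox5ap, which presents arachidonic acid to 5-lipoxygenase, stood at 844.9 and 535.9 CPM (1.58, 1.19 to 2.07). Lta4h, which makes leukotriene B4, had 1 UMI in mature-leaning and 71 UMIs in 28 immature-leaning cells (ratio 0.0409, 0.00102 to 0.236). Ltc4s was at 0. Of tertiary granule genes, Mmp9, gelatinase B, stood at 1354 and 739.1 CPM (1.83, 1.46 to 2.29) and Pglyrp1, a peptidoglycan-binding protein, at 1242 and 1541 CPM (0.806, 0.654 to 0.987). Slpi, an inhibitor of neutrophil elastase, stood at 1598 and 658.5 CPM (2.43, 1.95 to 3.02). Wfdc21, a secreted protein of the same WAP domain family, stood at 2402.5 and 4532 CPM (0.5301, 0.459 to 0.609). Among the stefin genes, near-identical copies between which reads may be split, Stfa1, Stfa2, Stfa3 and BC100530 had 0 UMIs in pIVCL neutrophils. Gm5483 had 46 UMIs in mature-leaning cells, all in 3 of the 42, and 0 in immature-leaning cells. Stfa2l1 had 17 UMIs in 5 mature-leaning cells and 10 UMIs in immature-leaning cells. Both were named after their values were seen. Cebpb, a factor of emergency granulopoiesis, stood at 1669.5 and 357.3 CPM (4.67, 3.63 to 6.04), and Spi1, which encodes PU.1, at 447.9 and 280.2 CPM (1.599, 1.08 to 2.34). Glycolysis genes had 1 of 10 past 2-fold higher and 0 lower (median 0.32, close to that of all genes), with Gapdh at 1191 and 907.2 CPM.

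Among genes with a UMI in at least 20% of the cells of the higher leaning, those highest in mature-leaning cells were Wfdc17, Ccl4, Ccl6, Ptgs2, Dusp1, Ifitm1, Gadd45b, Cxcl2, Acod1 and Pim1, with log2 ratios from 5.51 for Wfdc17 down to 3.9 for Pim1. Acod1 makes itaconate in activated myeloid cells and had a UMI in 47.6 and 6.98% of the cells. Wfdc17 stood at 4124.1 CPM in Kupffer-type barcodes, and its log2 ratio was 5.51 with all members and 4.12 without members carrying other-class RNA. Of its 103 UMIs in mature-leaning cells, 46 lay in the member with 87 UMIs of Kupffer cell genes. The lowest were Fcnb, Stmn1, Zmpste24, Lta4h, Top2a, Mki67, Inhba, H2afz, Glyr1 and Hmgn2, from -4.24 to -2.60. Fcnb, ficolin B, a lectin stored in neutrophil granules, had 0 and 102 UMIs and was at least 11.7-fold lower. Without other-class members these 20 genes stood at 5.27 to 3.53 and at -4.67 to -2.67. They were picked as extremes from the same cells, so their unchanged direction is no support for it.

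Of 12 cell-cycle genes, 5 reached 30 UMIs, all through the immature-leaning cells, so their lower level in mature-leaning cells (median log2 ratio -3.0) is a description. At least 3 of 12 cell-cycle genes were found in 11 of 43 immature-leaning cells and in no mature-leaning cell. These 11 were deeper (median 9002 UMIs compared with 4534.5 in the other 32). Mki67, Top2a and Ube2c, which helped to choose the 11, are not compared. Camp stood at 59619.9 CPM in the 11 and 25786 CPM in the 32 (ratio 2.31, 2.23 to 2.402), and Chil3, the chitinase-like protein Ym1, at 10523 and 2944 CPM (3.57, 3.22 to 3.97). Genes of later stages differed among themselves. Retnlg, a resistin-like secreted protein, stood at 152.7 and 5407 CPM (0.0282, 0.0161 to 0.0461), Mmp9 at 181.3 and 1063 CPM (0.171, 0.101 to 0.274), and Mmp8 at 2 and 226 UMIs (0.0153, 0.00184 to 0.0558). Ly6g stood at 486.6 and 675.2 CPM (0.721, 0.509 to 1.007) and Csf3r at 57.24 and 49.81 CPM (1.15, 0.337 to 3.615), with intervals that span 1. Primary granule RNA was scarce and confined to few cells, with 15 Elane UMIs in 2 and 35 Prtn3 UMIs in 4 of the 11 and 0 in the 32. Without other-class members (10 and 19 cells) the ratio was 1.49 for Camp, 2.11 for Chil3, 0.0101 for Retnlg and 0.1025 for Mmp9. That set leaves out the deep, hepatocyte-rich barcodes described above, which all fell among the 32. In it Ly6g stood at 469.3 and 1056.5 CPM, an interval that no longer spans 1 (0.444, 0.299 to 0.6495). The Csf3r interval still spanned 1 (0.115 to 1.95). Ltf and Lcn2 changed direction, from ratios of 1.26 and 1.28 with all members to 0.8625 and 0.722.

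Mature-leaning cells were also divided by their S100a8 and S100a9 share, which ran from 2.23 to 32.8%. That share chose the members, so the values that follow are a description. The 21 cells with the lower share (median 6.96%) and the 21 with the higher share (median 23.98%) had similar depth, with medians of 1750 and 2063 UMIs. Il1b stood at 7607 CPM in the lower and 3844 CPM in the higher cells (ratio 1.98, 1.65 to 2.38). Retnlg ran the other way at 4239 and 30172 CPM (0.141, 0.121 to 0.162), as did Mmp8 at 174.2 and 1611 CPM (0.108, 0.0476 to 0.2165), Pglyrp1 at 522.6 and 2040.1 CPM (0.256, 0.161 to 0.396) and Ly6g with 2 and 18 UMIs (0.1001, 0.0113 to 0.418). Csf3r stood at 1161 and 1117 CPM with an interval that spans 1 (0.705 to 1.54), and Cxcr2 likewise (0.5299 to 1.53). Alb, an RNA of hepatocytes, stood at 14149 and 7173 CPM, so other-class RNA moved with the split, and its part was not tested. Among the 22 mature-leaning cells without other-class RNA, divided again at their own median share, Alb stood at 6051 and 7264 CPM. There Il1b stood at 9826 and 3763 CPM (2.61, 2.01 to 3.41), Retnlg at 14532 and 38113 CPM (0.381, 0.332 to 0.437), Mmp8 at 672.3 and 2319 CPM (0.2899, 0.145 to 0.539) and Nfkbia, an NF-kB inhibitor, with 56 and 2 UMIs (33.1, 8.74 to 280.0). Over all 42 cells Nfkbia had 62 and 36 UMIs (1.55, 1.013 to 2.41). In the 22 cells Csf3r stood at 1913 and 875.2 CPM, an interval that no longer spans 1 (2.19, 1.24 to 3.98), and Ly6g had 4 and 12 UMIs, an interval that now does (0.394, 0.0926 to 1.3). The genes in this paragraph were picked after their values were seen.

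**Figure D4:**
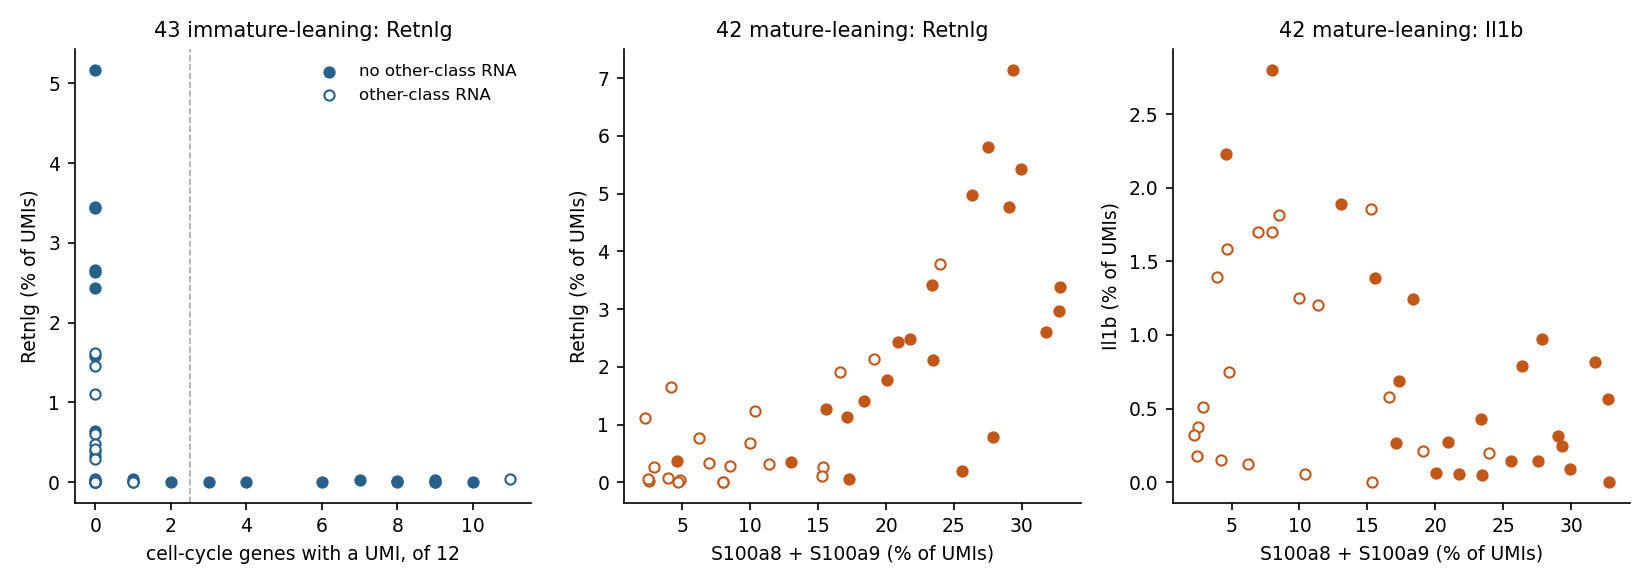
Left, Retnlg as a percentage of UMIs in the 43 immature-leaning pIVCL neutrophils by the number of 12 cell-cycle genes with a UMI, with the limit of 3 dashed. Middle and right, Retnlg and Il1b as percentages of UMIs in the 42 mature-leaning cells by their S100a8 plus S100a9 percentage. Open circles carry RNA of another class. Retnlg is highest in immature-leaning cells with no cell-cycle gene and in mature-leaning cells of high S100 share, where Il1b is lower (3844 against 7607 CPM in the cells of low share).

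Between libraries, only mature-leaning cells could be set side by side, 42 cells with 98231 UMIs in pIVCL and 2 cells with 6756 UMIs in Control, so the values describe 2 Control cells. Csf3r stood at 1140.2 CPM in pIVCL and 1184 CPM in Control (ratio 0.963, 0.472 to 2.29). Il1b stood at 5823 and 2516 CPM (2.31, 1.43 to 4), and the Control cells held 5 and 12 UMIs, within the pIVCL range. Cxcl2 had 226 UMIs in 30 of 42 pIVCL cells and 0 in the Control cells, at least 5.18-fold higher with a floor of 3 UMIs, although 12 pIVCL cells were also at 0. Ccl4 had 76 UMIs in 11 pIVCL cells and 0 in Control. Lcn2 stood at 2107 and 296 CPM (7.12, 1.95 to 59.2), while Pglyrp1 stood at 1242 and 3108 CPM (0.3996, 0.2501 to 0.669) and Slpi at 1598 and 3256 CPM (0.491, 0.313 to 0.806). Retnlg stood at 16532.5 and 16578 CPM, and the Control cells held 5 and 107 UMIs. The 2 Control cells had S100a8 and S100a9 shares of 18.13 and 30.85%, above the pIVCL median of 16.1%. Among pIVCL mature-leaning cells Il1b, Lcn2, Pglyrp1, Slpi and Retnlg varied with that share. Other-class RNA was found in 20 of the 42 pIVCL cells and 0 of the 2 Control cells. The part of either in these ratios was not tested. The genes named here were chosen after their values were seen. No interval here includes the spread between cells or mice.

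Against the nearest myeloid class, the 86 neutrophils were set beside 168 monocyte-type barcodes of the pIVCL library, which had a UMI of at least 3 of 7 genes (Ccr2, F13a1, Ly6c2, Ms4a4c, Fn1, Csf1r and Ms4a6c). Of 5576 genes with 30 UMIs over both, 61 were at least 4-fold higher in neutrophils (1.09%) and 170 at least 4-fold lower (3.05%), with S100a8 and S100a9 left out. Without other-class members 63 were higher and 305 lower. The median log2 ratio was -0.42. With S100a8, S100a9 and the split genes out of the totals the counts were 98 and 107 and the median -0.10. Of 19 neutrophil genes outside the rule that were measured, 17 were past 4-fold higher and 0 lower (median 3.42). Some of them, such as Ly6g, Cxcr2 and Retnlg, reached 30 UMIs only through the neutrophils. List counts in this comparison are therefore descriptions and support no direction for a list. The highest ratios were those of Camp, Ngp, Retnlg, Ltf, Lcn2, Mmp9, G0s2, Pglyrp1, Ly6g, Hdc, Adpgk, Cxcr2, Chil1, Mmp8 and Cd177, from 10.33 to 3.42 on the log2 scale.

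Granule genes differed by large ratios and oxidase genes by small ones. Retnlg had 2626 UMIs in 70 of 86 neutrophils and 1 UMI in 168 monocyte-type barcodes. G0s2, which restrains fat breakdown, stood at 1207 and 15.04 CPM (80.25, 48.15 to 144.6), and Hdc, which makes histamine, at 564.5 and 11.03 CPM (51.2, 28.04 to 104.1). Adpgk, an ADP-dependent glucokinase, stood at 517.6 and 18.1 CPM (28.7, 17.7 to 49.4). Cxcr2 and Chil1, a chitinase-like protein, had 92 and 85 UMIs in neutrophils and 0 in monocyte-type barcodes, at least 79.6-fold and 73.5-fold higher. None of 6 NADPH oxidase genes was past 4-fold, with Cybb at 811.6 and 751.0 CPM (1.08, 0.944 to 1.24) and Cyba at 1243 and 1258 CPM (0.988, 0.8875 to 1.099). Il1b stood at 1571 and 465.2 CPM (3.38, 2.99 to 3.82). That order held for mature-leaning cells, at 5823 CPM, but not for immature-leaning cells, at 112.1 CPM. Of 12 immediate-early and heat shock genes, 0 were past 4-fold higher and 3 lower, and Fos stood at 411.0 and 1310.5 CPM (0.314, 0.264 to 0.3702). Fos in mature-leaning cells alone, at 1110 CPM (911.1 to 1338.5), was near the monocyte-type level. In immature-leaning cells it stood at 164.6 CPM.

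The lowest ratios were those of H2-Eb1, Crip1, H2-Ab1, H2-Aa, S100a4, Cd74, Ms4a6c, Ccr2, Ahnak and Ms4a4c, from -5.64 to -4.03. Ccr2, Ms4a6c and Ms4a4c helped to choose the monocyte-type barcodes, so their values are a description. H2-Eb1, H2-Ab1 and H2-Aa are MHC class II chains and Cd74 their chaperone. Other-class RNA was filtered in neutrophils only. Of the 168 monocyte-type barcodes, 34 held at least 3 UMIs of conventional dendritic cell genes and 43 of plasmacytoid dendritic cell genes. B cell genes reached 3 UMIs in 22 and Kupffer cell genes in 18. The part of such barcodes in the MHC class II and Cd74 ratios was not tested. Cd74 had a UMI in 11.63% of neutrophils and 73.2% of monocyte-type barcodes, and its log2 ratio was -5.12 with all members and -7.99 without members carrying other-class RNA. Ccr2, which recruits monocytes, had 3 UMIs and 721 UMIs (ratio 0.0108, 0.00222 to 0.0317). S100a4, a relative of the selecting genes, had 2 UMIs in 1 neutrophil and 939 UMIs in monocyte-type barcodes (0.00553, 6.68e-04 to 0.02002), while S100a6 stood at 2817.1 CPM in neutrophils and 1674.4 CPM in monocyte-type barcodes. Of 5 primary granule genes, 0 were past 4-fold higher and 4 lower in neutrophils. Of the 1268 primary granule UMIs in monocyte-type barcodes, 1245 lay in 10 barcodes.

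**Figure D5:**
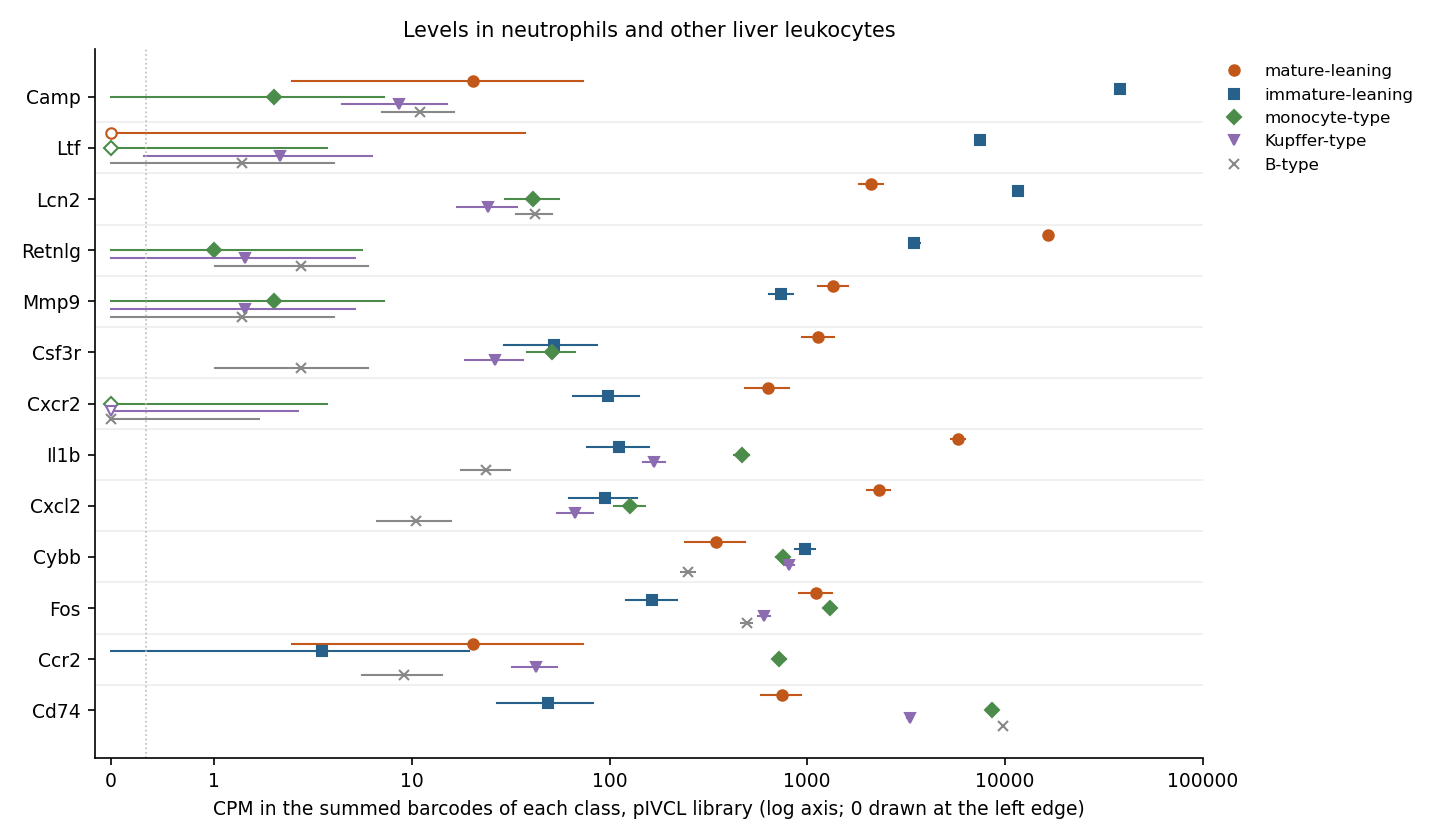
CPM of 13 genes in mature-leaning and immature-leaning neutrophils and in monocyte-type, Kupffer-type and B-type barcodes of the pIVCL library on a log axis, with exact 95% Poisson intervals; open symbols at the left edge are 0. Camp and Ltf are high in immature-leaning cells, Retnlg, Cxcr2 and Mmp9 in both leanings over the other classes, Il1b and Cxcl2 in mature-leaning cells, Cybb lies between 346.1 and 973.7 CPM in both leanings and monocyte-type barcodes, and Ccr2 and Cd74 are low in neutrophils.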

How the data were processed

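Single-cell RNA was counted on the 10x platform in 2 libraries of mouse liver, 1 per condition. Per the submitters' processing notes the authors used Cell Ranger 3.0.2 and mm10, and the deposited values are whole-number UMI counts per gene and barcode with no normalization. The 31053 gene identifiers were matched to GENCODE M21, of which 30934 were found. Barcodes were kept from 200 detected genes upward and up to a mitochondrial share of 25%. UMIs were summed per group and scaled to CPM in Python 3.11.15 (numpy 2.4.6, scipy 1.17.1, pandas 2.3.3; figures with matplotlib 3.10.9). Log2 ratios used 20 CPM added and genes with at least 30 summed UMIs. Because 1 library per condition leaves no replicate, no test was run; intervals are exact 95% (binomial for shares, Poisson for CPM, conditional binomial for ratios) and cover counting error only. The ratio step was tested on simulated Poisson counts without the 20 CPM, so ratios with 20 CPM added were not themselves tested. The neutrophil rule and the gene lists were chosen with earlier results of these data known. Genes were named by a rule: the label markers, up to 4 members of each list with the highest CPM in pIVCL neutrophils, members at 0, the 15 highest and 10 lowest ratios over monocyte-type barcodes, and the 10 highest and 10 lowest between leanings, with at least 50 CPM and a UMI in at least 20% of the barcodes of the higher group. Mitochondrial, ribosomal, immunoglobulin and T cell receptor genes and unnamed models were left out of these rankings. Of 291 list symbols 290 were found. UMIs come from the 3′ end of transcripts, so levels of different genes were not scaled by length.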

Additional observations from a re-analysis of the deposited data

How the results depend on the processing

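No paired analysis was possible because each condition has 1 library and no replicate numbers are shared, and no replicate could be left out. Of 67 values for the comparisons under other settings, 52 stayed within their limits and 15 moved. Limits were the counting interval for shares and ratios, and a fixed band around the main count for numbers of genes. Only the share ratios between libraries could be labelled reversed, and 0 were, so the other values say nothing about direction. Requiring a Csf3r UMI lowered the neutrophil share in pIVCL to 0.881%. Between leanings, 100 CPM added gave 156 genes higher and 47 lower, a minimum of 60 UMIs gave 130 and 48, and a minimum of 10 UMIs gave 678 and 274. Members without other-class RNA gave 174 higher, and totals without S100a8, S100a9 and the split genes gave 145 lower. Against monocyte-type barcodes, 5 CPM added gave 458 lower, 100 CPM added gave 19 higher and 47 lower, members without other-class RNA gave 305 lower, and totals without those genes gave 98 higher and 107 lower. Apart from the alternatives' own construction (other gene minimums, fewer cells, other totals), the cause was not tested. For the named genes, 172 of 335 values stayed within their limits, 163 moved and 0 reversed. These genes were picked for extreme ratios in the same cells, so the lack of reversals is no support for their direction. The totals without S100a8, S100a9 and the split genes, the mean of cells, the rule on thinned barcodes and the set without members over 15000 UMIs were chosen after seeing the data. The 3 Control neutrophils limit every comparison between libraries, and mature-leaning cells, with a median of 1875.5 UMIs, limit the detection of low genes.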

Other observations

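Primary granule RNA lay mostly outside the neutrophil rule in the pIVCL library. Of its 14 kept barcodes with at least 10 primary granule UMIs, 13 were not neutrophils by the rule. These 13 had a median of 13901 UMIs, S100a8 and S100a9 shares of 0 to 0.508% (9 of them with no S100a8 or S100a9 UMI), no UMI of Camp, Ngp or Ltf, 56 UMIs of Irf8, and at least 3 cell-cycle genes in 11. In the Control library the 1 such barcode was a neutrophil by the rule and held 473 of the 485 primary granule UMIs of kept barcodes.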
